A study of Drosophila melanogaster with 2 samples.

Results

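Of the 30000 peaks called on the pooled replicates of an E(spl)m8-HLH-GFP chromatin immunoprecipitation, 509 (1.70%) lay within 3′ untranslated regions (3′ UTRs). A peak was taken when its summit, the position of highest signal, fell in an annotated 3′ UTR and in no coding sequence, more than 500 bp from the transcription start site (TSS) of any protein-coding gene. The chromatin came from whole *Drosophila melanogaster* embryos of both sexes, aged 4 to 14 h, of a transgenic line that carries E(spl)m8-HLH with GFP at its C-terminus, and it was sonicated to 200 to 800 bp and precipitated with an antibody to GFP. The single group held 2 biological replicates, numbered 2 and 3, with no second genotype, treatment or tissue, so no test between conditions exists. The promoter that drives the transgene and its extent are not known from the labels, and the embryos are a mixture of all cell types. The control that the labels name was not analysed here. Besides the pooled list, the data hold an optimal list of 6152 peaks, which the authors thresholded on the irreproducible discovery rate (IDR), and 1 list of 30000 peaks for each replicate.

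A 3′ UTR is the stretch of a messenger RNA between the stop codon and the poly(A) tail, where RNA-binding proteins and microRNAs act on the transcript. In the genome of the fly, genes are close together, and the 3′ UTR of one gene often ends next to the 3′ UTR of a convergent neighbour on the other strand. The factor is one of the E(spl) proteins, helix-loop-helix repressors with an Orange domain that are related to Hairy. Their genes are switched on by Notch signalling, and the proteins recruit the corepressor Groucho and are known to bind variants of the E-box.

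3′ UTR peaks were sparser and weaker than peaks of introns or of the sequence just downstream of genes, and 60 of the 509 belonged to the optimal list. A site of the types known for the family, which are the palindrome CACGTG, the Hairy site CACGCG and their relative CACGAG, occurred within 50 bp of 35 of the 509 summits (6.88%), near the 7.16% of all pooled peaks. It occurred at 1 of the 60 summits in the optimal list (1.67%), with an exact 95% interval of 0.0422 to 8.94% that includes both shares. That member lay in the 3′ UTR of CG7872 on the X, with a signal value of 678 and rank 812 in the pooled list. It stands first below, followed by 8 of the stronger members outside the optimal list that hold a site of the first 2 types. This set was chosen after their values were seen and comes from the X, 2L, 3L and 3R only. Stronger members with such a site on other arms may therefore be missing from it. The sequences are read from the RefSeq Release 6 assembly (dm6), 5′ to 3′ on the strand given, and the capitals mark the site. CACGTG reads the same on both strands and is shown on the strand of the gene.
CG7872, chrX:15579788-15579817, minus strand: ttagttaggaaaCACGCGaatgtggcgtgc
Adk2, chr3L:13019999-13020028, minus strand: aaacaaaagtgaCACGCGagcgagacacaa
lectin-28C, chr2L:7858448-7858477, plus strand: ggtaaactttgtCACGCGttaaggtccttg
AOX1, chr3R:15532262-15532291, minus strand: cgtgggacatggCACGTGgccacgatggga
CG7378, chrX:18911764-18911793, plus strand: acacacactactCACGCGgggtgtggatgg
Lim3, chr2L:19079893-19079922, plus strand: gtgtggtaaagcCACGCGaagcgttgccac
CG42342, chr3R:16570763-16570792, plus strand: ctgccttacgcaCACGCGcacgcacacaat
CG7606, chr3R:17598033-17598062, minus strand: taaatgaaacggCACGCGccgctggaaatt
Nf1, chr3R:25994771-25994800, minus strand: catacatcaataCACGCGttcatttccttc

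The nearest edge of the site in CG7872 lay 6 bp from its summit. The summit of the CG7606 member fell inside its site, and the site in Lim3, which encodes a LIM homeodomain factor of neurons, lay 3 bp from the summit. For Adk2, lectin-28C, AOX1, CG7378, CG42342 and Nf1 the nearest edge of the site was 16 to 45 bp from the summit. The signal values of the 8 members outside the optimal list ran from 166 in Adk2 to 79.5 in Nf1, which encodes the fly neurofibromin.

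The other members among the strongest 5 carried none of the 3 sites. The summits of 4 of the strongest members that hold none of the 3 sites, also chosen after their values were seen, are given for contrast, on the strand of the gene, with the summit base in capitals.
Cals, chr4:1113283-1113312, minus strand: ggtattcagagctaCactttatttcttata
CG9837, chr3R:8808643-8808672, minus strand: tgcaatcattttcgTgaagtattgatttat
CG5984, chr3R:27246410-27246439, minus strand: gattcattaaaataAattcactaaaataac
scf, chr3L:1300305-1300334, plus strand: ttttacatctaactaTtattaacaagatca

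Peaks were sparse in 3′ UTRs. A base was called eligible for a position class when a summit there would have been counted in it, which gave 6.09 Mb of eligible 3′ UTR. The density was 83.6 pooled peaks per Mb in 3′ UTRs (exact Poisson 95% interval 76.5 to 91.2). It was 39.1 per Mb in coding sequence, 238 in introns and 244 in intergenic sequence within 2 kb downstream of a gene end, all more than 500 bp from a TSS. The density in 3′ UTRs was thus 2.14 times that in coding sequence (1.91 to 2.40), 0.351 times that in introns (0.321 to 0.384) and 0.343 times that just downstream of genes (0.309 to 0.379). For peaks of the optimal list the contrast with introns and downstream sequence was wider. Their density was 9.85 per Mb in 3′ UTRs (7.52 to 12.7), against 1.11 in coding sequence, 45.1 in introns and 50.4 downstream of genes. All intervals cover counting error only, because neighbouring peaks are not independent.

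**Figure D1:**
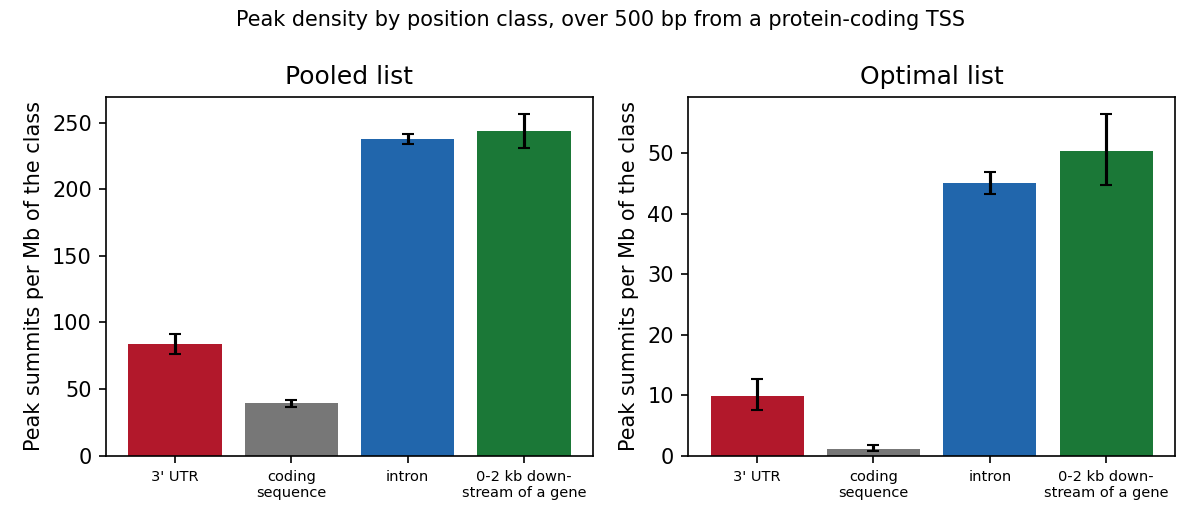
Density of peak summits per Mb of eligible sequence in 3′ UTRs, coding sequence, introns and intergenic sequence within 2 kb downstream of a gene end, for the pooled list (left) and the optimal list (right). Bars give the density and lines its exact Poisson 95% interval. The bar for 3′ UTRs stands at 83.6 and 9.85 per Mb, between coding sequence and the other classes in both lists.

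The rule set aside summits near start sites and in coding sequence. In all, 698 pooled summits lay in a 3′ UTR of some transcript. Of these, 38 also lay in coding sequence, and 151 others lay within 500 bp of a protein-coding TSS, of which 37 were in the optimal list. Just inside the limit of 500 bp stood members in CG7668 (501 bp from the nearest TSS, signal 256, in the optimal list), Ir21a, an ionotropic receptor gene (501 bp, 57.9), and Act5C, a cytoplasmic actin gene (508 bp, 57.2). Just outside it stood summits in Tmep (499 bp, 133), Pp2C1 (498 bp, 167) and Vha13 (496 bp, 49.0).

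The 60 members in the optimal list made up 11.8% of 3′ UTR peaks (exact Clopper-Pearson 95% interval 9.12 to 14.9), where the share over all pooled peaks was 20.5%. It was 2.85% of 737 peaks in coding sequence, 18.9% of 12601 intronic peaks, 20.7% of 1394 peaks downstream of gene ends and 28.7% of 7948 peaks within 500 bp of a TSS. The share in 3′ UTRs was 8.94 percentage points above that in coding sequence (Newcombe 95% interval 6.02 to 12.2). Its difference from introns was −7.15 points (−9.76 to −3.98) and that from downstream peaks was −8.87 points (−12.2 to −5.17). None of these intervals includes 0. The 6152 peaks of the optimal list were the 6152 of highest signal in the pooled list, so membership in it is a matter of signal rank.

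Most 3′ UTR peaks were weak. The signal value, which is the authors' enrichment value for a peak, had a median of 58.1 in 3′ UTR peaks, with quartiles at 44.7 and 97.7 and a range of 36.8 to 896. Its median was 47.4 in coding sequence, 72.8 in introns, 74.6 downstream of gene ends and 76.7 over all pooled peaks. The median rank of the members was 19842 of 30000, and 174 of the 509 (34.2%, 30.1 to 38.5) stood in the stronger 50% of the list. The strongest 1000 peaks held 5 of the members and the strongest 2000 held 17. The median −log10 q-value of the authors was 0.827 in the members, against 1.44 over all pooled peaks. It was 4.21 in the strongest member and at or below 0.827 in 50% of the members. Values that low are weak calls, so being a member does not by itself show binding.

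**Figure D2:**
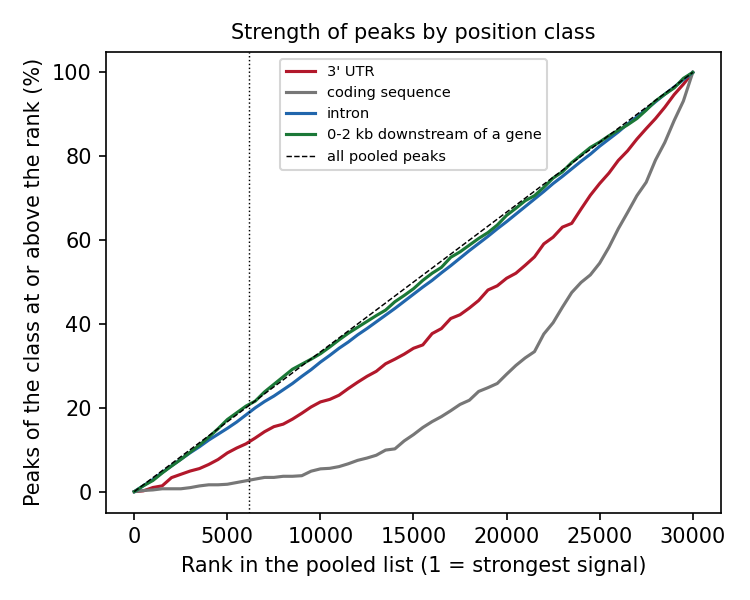
Cumulative share of the peaks of a position class (vertical axis, percent) at or above a rank in the pooled list (horizontal axis, rank 1 is the strongest). The dashed line is the course of all pooled peaks and the dotted line marks the 6152 peaks of the optimal list. The curve of 3′ UTR peaks runs below those of introns and downstream sequence and, from rank 1000 on, above that of coding sequence, and reaches 11.8% at the dotted line.

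Each replicate had its own list of 30000 peaks, so ranks can be set side by side. A summit counted as found in a replicate when it lay inside a peak of that list. Of the 509 members, 252 (49.5%, 45.1 to 53.9) were found in both replicates, while 64.8% of all pooled peaks were. The share was 32.2% in coding sequence, 64.3% in introns and 62.3% downstream of gene ends. The difference from coding sequence was 17.4 points (11.8 to 22.8) and that from introns was −14.8 points (−19.2 to −10.4). Neither replicate stood out, with 116 members in replicate 2 only, 115 in replicate 3 only and 26 (5.11%, 3.36 to 7.40) in neither list. Counted afresh in each replicate's own list, 3′ UTR peaks numbered 524 in replicate 2 and 498 in replicate 3. Among the 252 members found in both, 131 ranked higher in replicate 2 and 121 in replicate 3.

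**Figure D3:**
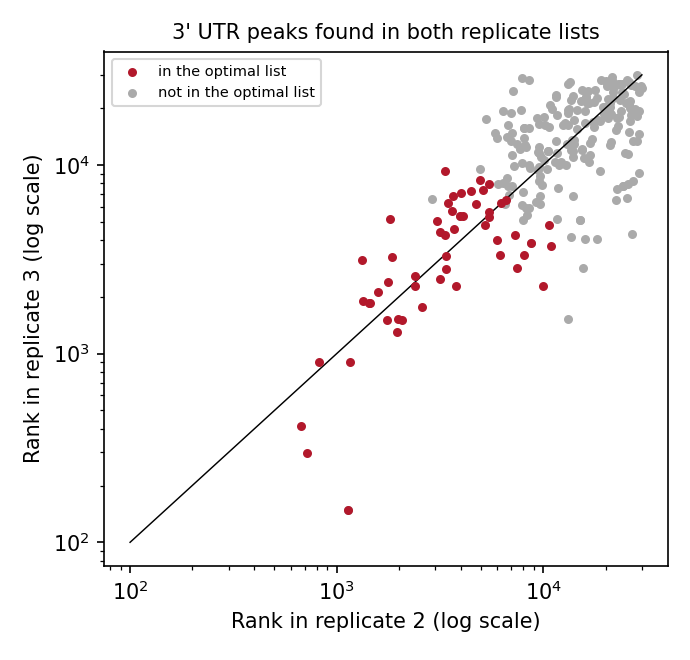
Rank in replicate 2 (horizontal axis) against rank in replicate 3 (vertical axis) for the 252 3′ UTR peaks found in both replicate lists, on log scales, where lower ranks are stronger peaks. Red points are the 54 of them in the optimal list, grey points the other 198, and the line marks equal ranks. The red points gather at the strong end and lie on both sides of the line.

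Members of the optimal list were mostly found in both replicates. Of the 60, 54 lay inside a peak of both lists, against 198 of the 449 other members. The share over the whole optimal list was not set beside this count, so it cannot be read as a trait of 3′ UTRs. The other 6 were each missing from 1 replicate. For the CG5984 member, and for the weaker of a pair of members in CG33307, the missing replicate had a peak whose edge ended 2 bp and 112 bp from the summit. The remaining 4 had no peak nearby in the missing replicate. The peak in pros, which encodes the homeodomain determinant Prospero of neural progeny cells, ranked 788 in replicate 2, and the nearest summit of replicate 3 was 14038 bp away. The peak in fne, which encodes an RNA-binding protein of the ELAV family, ranked 2784 in replicate 2, with the nearest summit of replicate 3 at 7441 bp. The peak in Octalpha2R, an octopamine receptor gene, ranked 3632 in replicate 2, with the nearest summit of replicate 3 at 8996 bp. The peak in fd96Cb, which encodes a forkhead factor, ranked 4166 in replicate 3, and the nearest summit of replicate 2 lay 18393 bp away. In the replicate lists, these 4 members thus rest on 1 replicate each.

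The strongest member lay in Cals, which encodes the synaptic cadherin-like protein calsyntenin, at chr4:1113130-1113474. Its signal value was 896, its rank 467 in the pooled list, 717 in replicate 2 and 299 in replicate 3. It was the only 3′ UTR peak on that arm, and its summit lay 19 bp from the 3′ end of sv (shaven), a Pax gene of sensory organs on the other strand, with a gap of −444 bp between the ends, that is, an overlap. The second strongest, in CG9837 at chr3R:8808430-8808849, had a signal of 857 and ranked 671 in replicate 2 and 411 in replicate 3. The third, in CG42807, had a signal of 683 and ranked 1139 in replicate 2 and 148 in replicate 3. The CG7872 peak at chrX:15579669-15579922 had nearly equal ranks, 825 in replicate 2 and 906 in replicate 3. The CG5984 peak (signal 677) ranked 693 in replicate 3, and the peak in scf, which encodes a calcium-binding EF-hand protein, had a signal of 601 and ranked 1166 in replicate 2 and 899 in replicate 3.

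The next strongest members spanned genes of unlike function. The pros peak had a signal of 565 at chr3R:11392883-11393125, 886 bp past the stop codon of a 3′ UTR of 15530 bases, the longest among the hosts. CG13739 (466), Uck (465), a uridine-cytidine kinase gene, CG14440 (461), APC7 (458), a subunit of the anaphase-promoting complex, and stas (457) followed within a narrow range of signal. All 5 were found in both replicates, at ranks from 1305 to 1965. Next came qvr (438), which encodes the sleep regulator Quiver, CG4004 (432), the stronger CG33307 peak (419), the nuclear receptor gene Hr4 (411), and NetB (402), which encodes a netrin that guides axons. The NetB peak lay at chrX:14689197-14689406, 9715 bp from the nearest TSS, and ranked 1774 in replicate 2 and 2396 in replicate 3.

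The members ranked 18th to 25th in signal were in CG5895 (385), Tctp (365), which encodes a protein of growth control, Ama (360), an immunoglobulin-domain adhesion gene, and by (345), the tensin gene blistery. ETHR (318), the receptor gene for ecdysis-triggering hormone, lwr (315), the SUMO-conjugating enzyme gene, Myd88 (303), the Toll adaptor gene, and the weaker CG33307 peak (299) completed them. Apart from the last, each was found in both replicates, and the widest gap among them was in ETHR, at rank 1817 in replicate 2 and 5158 in replicate 3.

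The weaker members of the optimal list had signals of 170 to 291. They include genes of cell contact, with 2 members in Inx2 (200 and 197), which encodes a gap-junction innexin, and 1 in rst (208), an immunoglobulin-domain protein of muscle founder cells and eye. Genes of signalling and metabolism were Cam (177), which encodes calmodulin, CkIIbeta (177), a casein kinase subunit, aay (214), a phosphoserine phosphatase, and eas (172), an ethanolamine kinase. Regulators of the nucleus were CycB3 (174), a mitotic cyclin, dmrt99B (201), a doublesex-related factor, and corto (170), a chromatin factor of the Polycomb and trithorax groups. Known mainly by a number were CG9522 (291), CG9107 (271), CG9500 (263), CG10357 (258), CG2082 (245), CG9166 (236), CG8206 (225), CG42502 (224), CG42342 (219), CG1888 (215), CG3168 (204), CG16989 (202), CG13510 (199), CG12831 (191) and CG13334 (188). The remaining members were MESK2 (226), Rbp9 (209), dao (197), REG (195), Crag (177), the weaker of a pair in lwr (185), and those in CG7668, fne, fd96Cb and Octalpha2R.

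Where the replicates differed most in rank among members found in both, replicate 3 was the stronger. A weaker member in CG4004 ranked 13116 in replicate 2 and 1525 in replicate 3, a ratio of 8.60, but in replicate 3 it lay in the same peak as the stronger CG4004 member. A pair of members in CG42807 shared the same replicate peaks, at rank 1139 in replicate 2 and 148 in replicate 3, a ratio of 7.70, so that they are not separate observations.

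Near a convergent neighbour, meaning a protein-coding gene on the other strand whose 3′ end lay within 1 kb of the summit, stood 92 of the 509 members (18.1%, 14.8 to 21.7). Of the eligible 3′ UTR bases, 27.1% had such a neighbour. The share of members was below that of bases, as it was within 500 bp (12.6% of members, 18.6% of bases) and within 2 kb (28.7% of members, 36.8% of bases). Gene ends that overlapped made up 34 of the 92 cases, or 6.68% of members, against 11.6% of bases.

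The share was higher among members in the optimal list, within a wide interval. Of the 60, 16 lay within 1 kb of a convergent 3′ end (26.7%, 16.1 to 39.7), as did 76 of the 449 other members (16.9%) and 27.1% of eligible bases. Read the other way, 16 of 92 members with a convergent neighbour were in the optimal list (17.4%), against 44 of 417 without one (10.6%), a difference of 6.84 points whose interval includes 0 (−0.363 to 16.2). At 2 kb the difference was 7.48 points (1.19 to 14.9). Of the 16 optimal members, 14 lay beside ends that did not overlap.

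**Figure D4:**
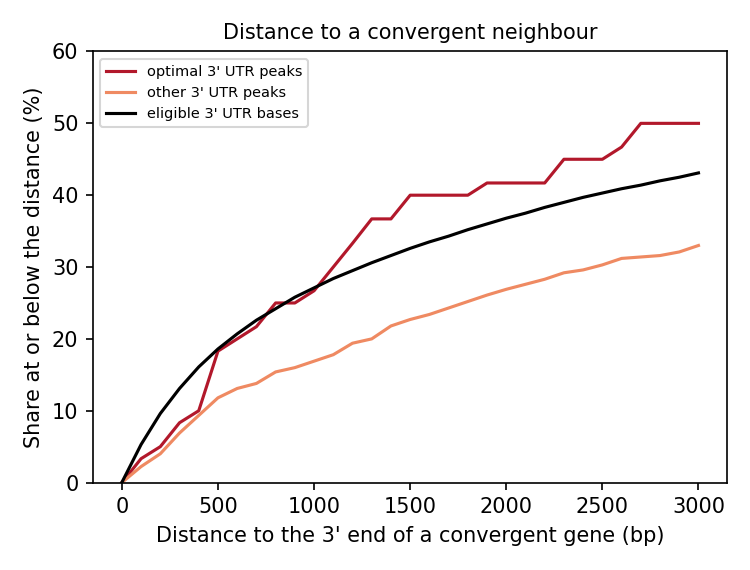
Cumulative share (vertical axis, percent) of 60 optimal 3′ UTR peaks, 449 other 3′ UTR peaks and eligible 3′ UTR bases that lie at or below a distance from the 3′ end of a convergent protein-coding gene (horizontal axis, bp). At 1000 bp the shares are 26.7%, 16.9% and 27.1%, with the other peaks lowest.

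Several of these convergent pairs join genes with known developmental roles. Besides Cals and sv, the scf peak lay 559 bp from the end of Rac1, a GTPase of the cytoskeleton. The stronger lwr peak lay 237 bp and the weaker one 437 bp from the end of ush, a cofactor of GATA factors, and the ends of these genes are 38 bp apart. The CG16989 peak lay 473 bp from the end of Rbf, the retinoblastoma-family gene, and the REG peak lay 153 bp from that of mew, an integrin gene.

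The other pairs were of mixed function. The Uck summit was 4 bp from the end of CG5715, and the summits in Tctp and Myd88 were 494 and 244 bp from the ends of ZnT86D, a zinc transporter gene, and Drep2. For Crag the neighbour was Caf1-180, a chromatin assembly factor gene, at 779 bp, for dao it was PolD3 at 361 bp, and for CycB3 it was Elal at 460 bp. The members in CG9500, CG8206, CG3168 and eas had ppk14, CG8944, CG14441 and CG32576 as neighbours, at 425, 953, 788 and 620 bp. Which gene of such a pair, if either, a peak concerns was not tested.

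Along the 3′ UTR, summits were rarer next to the stop codon than the bases there. Within 250 bp of the stop codon lay 22.6% of members, against 31.1% of eligible bases, and the first 10% of the host 3′ UTR held 35 members (6.88%). The median member was 694 bp past the stop codon and 567 bp before the transcript end, at 55.2% of the length of the 3′ UTR, against 50.2% for eligible bases. The fullest stretch was that between 80 and 90% of the length, with 75 members (14.7%, 11.8 to 18.1, for 10.1% of bases), and the last 10% held 40 (7.86%). Within 250 bp of the transcript end lay 27.9% of members and 30.4% of bases.

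**Figure D5:**
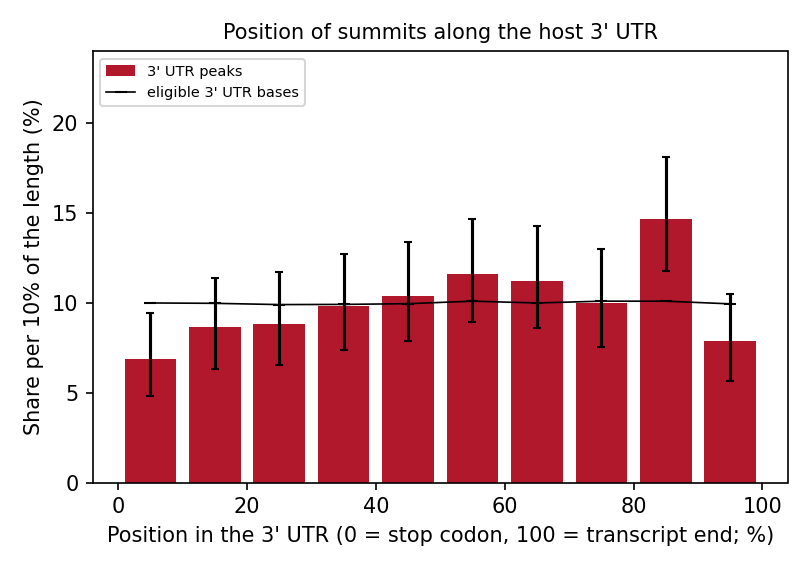
Share of the 509 summits in each 10% of the length of the host 3′ UTR (bars, percent, with exact 95% intervals), with the share of eligible 3′ UTR bases as marks joined by a line. The horizontal axis runs from the stop codon (0%) to the transcript end (100%). The first 10% holds 6.88% of summits and that from 80 to 90% holds 14.7%.

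Members near the transcript end were more often in the optimal list. Of 142 members within 250 bp of the transcript end, 24 were in the optimal list (16.9%, 11.1 to 24.1), against 36 of the 367 others (9.81%, 6.97 to 13.3), a difference of 7.09 points (0.779 to 14.6). At the stop codon the interval included 0, with 12 of 115 members within 250 bp of it in the optimal list (10.4%), against 48 of the 394 others (12.2%), a difference of −1.75 points (−7.41 to 5.75). The 10 such contrasts computed were not adjusted for their number.

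Host 3′ UTRs were long, but a long 3′ UTR also offers more bases, and per base the density was lowest in the shortest. The longest 3′ UTR of the host genes had a median of 1235 bases, against 283 for all genes with an eligible 3′ UTR. The density was 39.4 members per Mb in 3′ UTRs of up to 250 bases (24.7 to 59.6), on 22 members. It was 88.5 per Mb from 250 to 500 bases, 103 per Mb from 1000 to 2000 bases (87.0 to 122), and 72.7 per Mb above 4000 bases (55.9 to 93.0).

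The X chromosome held 142 of the 509 members (27.9%), while it held 17.5% of all pooled peaks and 23.3% of the eligible 3′ UTR bases. Its density was 100 members per Mb (84.4 to 118), or 1.27 times that of the other arms (1.04 to 1.55). Over all positions the ratio of pooled peaks per Mb of the X to the other arms was 0.993 (0.963 to 1.02). For optimal members the X ratio was 1.53, with an interval of 0.837 to 2.69 on 19 members of the X. Among the other large arms the density ran from 63.2 per Mb on 3L to 91.6 on 3R.

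The 509 members lay in 401 host genes, taking for each summit the gene with the longest 3′ UTR over it. Of these, 328 genes had 1 member and 73 had more. The most were 7 in corto, whose 3′ UTR of 6594 bases held 1 optimal peak (170), 6 in elav and 5 in CG1888, with 1 optimal peak (215). The members of elav, which encodes the pan-neuronal RNA-binding protein ELAV, lay along a 3′ UTR of 8557 bases with signals of 94.1, 91.7, 80.1, 54.1, 48.2 and 42.7, none in the optimal list. Other genes with 4 members each were CG42342, CG7378, fs(1)h, a bromodomain gene, Glut4EF, hth, a homeodomain gene, and Slh. Members of a gene can share a replicate peak, so these are not counts of separate sites. The elav members with signals of 80.1 and 42.7, for example, lay in the same peak of each replicate list. Of all members, 84 (16.5%) had a stronger pooled peak within 500 bp. For that distance no share over all pooled peaks was set beside it, so it cannot be read as a trait of 3′ UTRs.

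Some annotated overlaps qualify the class. In 97 members (19.1%) the summit also lay in an intron of another transcript, in 15 it lay in the 3′ UTR of more than 1 gene, in 5 in a 5′ UTR and in 10 in an exon of a non-coding gene. The nearest TSS was that of the host gene in 246 members and that of another gene in 263. A stronger pooled peak lay within 1 kb of 165 members (32.4%, 28.4 to 36.7), close to the 35.4% of all pooled peaks. The same held for 6 of the 60 optimal members. Optimal members were set apart by high signal, so few stronger peaks exist for them. The share over the whole optimal list was not set beside that count. The width was 424 bp in 482 of the 509 members, which is also the median over all pooled peaks.

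Among all 11459 genes with an eligible 3′ UTR, 3.61% had a member in it, 414 genes in all, counting each gene whose 3′ UTR covers a summit. In the list for the E(spl) complex 2 of 12 genes had a member, E(spl)m2-BFM (64.2) and E(spl)m6-BFM (46.5). Both are small Bearded-family genes, and neither member was in the optimal list, with −log10 q-values of 1.01 and 0.522. On the 4.51 kb of eligible 3′ UTR in this list, these 2 members gave 443 per Mb (53.7 to 1602). That interval includes the 83.6 of all eligible 3′ UTRs. The E(spl)m2-BFM summit lay 245 bp from a stronger member (83.8) in its convergent neighbour Kaz-m1, which this list does not hold. That member was also outside the optimal list, and the ends of these genes are 26 bp apart. None of 4 genes of the Bearded complex, 20 of the Notch pathway, 11 of the microRNA pathway, 15 insulator genes or 15 septate junction and glial genes had one. These lists are small: for the Notch pathway, with 23.6 kb of eligible 3′ UTR, the exact 95% interval of a count of 0 reaches 156 members per Mb, above the density over all genes.

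Genes with neural roles included some hosts of optimal members. The optimal members in pros and fne were found in replicate 2 only, and those in NetB and Rbp9 in both replicates. Among sensory organ and neuroblast genes, 5 of 27 had a member, namely pros (565), the temporal factors hb (73.3) and Kr (66.0), insc (50.3), an asymmetric division gene, and mira (37.6). Their density was 117 per Mb (38.1 to 274), an interval that includes the 83.6 of all eligible 3′ UTRs, and pros alone is in the optimal list. Among neural RNA-binding protein genes it was 5 of 20, with fne (275) and Rbp9 (209) in the optimal list and elav, Imp and pum outside it, so that fne, Rbp9 and elav, which together make up the ELAV family, each had one. These 20 genes have a median longest 3′ UTR of 5420 bases, and per base their 12 members gave 110 per Mb (56.8 to 192), which again includes 83.6. Of 10 genes known for 3′ UTR extensions in neurons, 4 had a member (elav, fne, Imp and pum), at 124 per Mb (56.9 to 236). Among axon guidance and adhesion genes 3 of 22 had one, NetB (402), shg (rank 14724), the E-cadherin gene, and Nrg (43.9), the neuroglian gene, at 52.3 per Mb (10.8 to 153).

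Other developmental lists held 1 to 5 members each. Mesoderm and muscle genes had 4 of 19, led by rst (208), if (84.3), an integrin gene, and sls (67.0), the titin-like gene, with Mef2 the weakest, at 188 members per Mb (61.0 to 438). Nuclear receptor genes had 3 of 17, with Hr4 (411), Hr3 (45.4) and Eip78C (41.0), at 113 per Mb (23.3 to 331). Hox genes had 1 of 8, Antp (49.5), and the Dpp, Wingless and Hedgehog pathways 2 of 26, sgg (86.4), the GSK3 kinase gene, and dpp (39.0), the BMP ligand gene. The EGF receptor pathway had 1 of 19, the phosphatase gene csw (98.4), Polycomb and trithorax genes 1 of 19, Su(z)2 (76.6 and 43.4), and cell cycle genes 1 of 18, CycB3 (174 and 92.7). The density was 128 per Mb for Polycomb and trithorax genes (15.5 to 463), 183 for cell cycle genes (22.2 to 662), 87.0 for Hox genes (2.20 to 484), 58.5 for the Dpp, Wingless and Hedgehog pathways (7.08 to 211) and 32.3 for the EGF receptor pathway (0.817 to 180). Each of the intervals in these lists includes the 83.6 of all eligible 3′ UTRs.

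Among housekeeping and late-expressed genes, ribosomal protein genes had 4 of 76, RpS26 (79.1), RpS23 (63.2), RpS25 (46.5) and RpL3 (37.0), none in the optimal list. None of 29 tRNA synthetase genes, 55 mitochondrial ribosomal protein genes, 65 cuticle protein genes or 35 odorant and gustatory receptor genes had one. The lists of tRNA synthetase and mitochondrial ribosomal protein genes hold only 8.09 and 4.16 kb of eligible 3′ UTR.

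The DNA around the summits was compared with tiles of the same length, 101 bp, over all eligible 3′ UTRs (65936 tiles), on both strands. CACGTG, the palindromic E-box bound by Hairy-type and many other helix-loop-helix proteins, lay in 11 members (2.16%), against 0.714% of tiles, a difference of 1.45 points (0.494 to 3.11). CACGCG, the site of Hairy and its relatives, lay in 15 (2.95%), against 1.33% of tiles, a difference of 1.61 points (0.457 to 3.47). CACGAG was in 12 (2.36%), against 1.61% of tiles, a difference of 0.745 points whose interval includes 0 (−0.263 to 2.47). In the list of replicate 3 alone the share with CACGAG was 1.41%, below that of tiles. Over all pooled peaks CACGTG was in 1.94%, CACGCG in 3.16% and CACGAG in 2.36%, each inside the interval of the members. CACAAG, which was searched too, was in 3.73% of members, 4.23% of tiles and 4.21% of all pooled peaks. Its difference from tiles was −0.492 points, with an interval that includes 0 (−1.83 to 1.54). Of the E-boxes of other helix-loop-helix proteins, CAGCTG and CATATG differed from tiles by as much, and CACCTG by less. CACCTG was in 2.75% of members, against 2.11% of tiles, a difference of 0.642 points whose interval includes 0 (−0.468 to 2.46). CAGCTG was in 3.93% of members, against 2.27% of tiles, a difference of 1.66 points (0.282 to 3.72), and CATATG in 4.91%, against 3.31%, a difference of 1.60 points (0.0287 to 3.84).

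Any of the 3 sites was present in 35 members (6.88%, 4.84 to 9.43), in 2371 of the 65936 tiles and in 7.16% of all pooled peaks. In the 60 optimal members it was present in 1 (1.67%, 0.0422 to 8.94), an interval that also includes the share of tiles and that of all pooled peaks. These are matches of letters, and no match says only that these letters are not in the window.

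Of the motifs made of A and T alone, all 3 searched were less frequent in members than in tiles. The homeodomain core TAATTA was in 5.89% of members and 9.16% of tiles, and the poly(A) signal AATAAA in 21.4% of members and 27.8% of tiles. A run of AAAAAA was in 17.5% of members and 22.2% of tiles. Over all pooled peaks TAATTA was in 6.92%, AATAAA in 22.4% and AAAAAA in 20.3%, each inside the interval of the members. Among the 60 optimal members AAAAAA was in 18 of 60 (18.8 to 43.2%) and AATAAA in 31.7% (20.3 to 45.0%). These intervals include the shares over the whole optimal list, 25.1% for AAAAAA and 30.4% for AATAAA. The median GC content of the window was 38.6% in members, 36.1% in optimal members and 34.7% in tiles, against 40.6% over all pooled peaks and 32.7% over the optimal list. The part of GC content in these shares was not tested. The Brd box AGCTTTA, the K box TGTGAT and the GY box GTCTTCC, which are known in the 3′ UTRs of E(spl) and Bearded-family transcripts as microRNA target sites, were searched too. The Brd box was in 1.18% of members and 2.14% of tiles, the K box in 5.30% of members and 5.26% of tiles, and the GY box in 0.786% of members and 0.513% of tiles. Matches of these boxes and of AATAAA were counted on either strand, so a match may lie on the strand opposite to the transcript.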

How the data were processed

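Chromatin from 1 group of 2 biological replicates was analysed as 4 deposited peak lists on dm6, named in the labels. The signal value is a score given by the authors' peak caller in the deposited lists, and the −log10 q-value is a column of the deposited lists too; both served, unchanged, for description and ranking inside 1 list. The p-value column held no values. The peak caller, the aligner, their versions and the IDR threshold were not given in the sources used here. The depth of reads is unknown, so precision comes from the number of peaks behind a share. Optimal peaks were matched by arm, start, end and summit. Position classes, distances and gene ends came from Ensembl release 115 on the 6 arms, and sequence from RefSeq Release 6. Eligible bases were read at every 10th base for shares. The host was the gene with the longest 3′ UTR over the summit. Intervals are exact Clopper-Pearson (shares), exact Poisson or conditional binomial (densities) and Newcombe (differences), at 95%, with no p-value. Class assignment was tested on a simulated genome. Python 3.11.15, numpy 2.4.6, pandas 2.3.3 and scipy 1.17.1 were used. Genes were named when among the 25 strongest members, in 1 of 22 gene lists, next to the TSS limit, with the most members or with the widest replicate gap; the other optimal members were named after their values were seen. The class, the lists and 18 motifs were chosen with earlier results of these data known. For 11 listed symbols the annotation's name was used.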

Additional observations from a re-analysis of the deposited data

How the results depend on the processing

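Under other rules of annotation and TSS distance, the number of 3′ UTR peaks ran from 411, with summits in introns or 5′ UTRs of other transcripts left out, to 561, with a TSS limit of 250 bp. It was 498 without replicate 2 and 524 without replicate 3. In the stronger 50% of pooled peaks there were 174 members, of which 34.5% were in the optimal list. That part holds 15000 peaks and the whole optimal list of 6152. The higher share thus follows from the cut and is no result about the members. With replicate summits required within 100 bp, 38.5% of members were found in both replicates, and a convergent end lay within 500 bp of 12.6% and within 2 kb of 28.7%. The share in the optimal list was 11.6% without replicate 2 and 9.73% without replicate 3, with the other replicate's list cut at the same number of its strongest peaks, and the share with a convergent neighbour was 21.7% without replicate 2 and 19.3% without replicate 3. Matching by start and end alone, an alternative added after the data were seen, gave a share inside its interval. Leaving out an arm gave 78.6 (X) to 88.1 (3L) peaks per Mb. With 100 bp on each side CACGCG was in 5.50% of members and 2.74% of tiles, and CACGAG in 4.13% and 3.34%. Without replicate 2 CACGAG was in 1.41% of members. No paired analysis was possible because there is 1 group. Depth is unknown, 2 replicates give a poor estimate of spread, and differences in how well reads map to 3′ UTRs were not tested.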
